A study of Rattus norvegicus with 32 samples.

Results

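The cholinergic enzymes and receptors of the rat brain were followed as 10 genes, taken by name from the per-sample gene count files out of 28914 genes counted: *Chat*, *Slc18a3*, *Ache*, *Chrm1*, *Chrm2*, *Chrm3*, *Chrm4*, *Chrna4*, *Chrna7* and *Chrnb2*. RNA-seq libraries came from adult male Sprague-Dawley rats given either methamphetamine (METH, 10 mg/kg, intraperitoneal) or saline in 4 injections 2 h apart, with tissue taken 24 h after the last injection. The 4 regions were the nucleus accumbens (NAc), the subventricular zone (SVZ) and, from the hippocampus, the dentate gyrus (DG) and Ammon's horn (CA), and each of the 8 groups of region and treatment had 4 samples, 32 in all. No group carried a transgene or a deletion. The NAc and SVZ were punched and the DG and CA were scooped from the tissue, so that each sample is a bulk mixture of the cells of its piece. The labels do not say that the samples of a group came from separate rats, so p-values measure the spread between these samples. Nor do they say whether different regions came from the same rats, and the main tests between regions took all samples as independent.

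Cholinergic neurons make acetylcholine with choline acetyltransferase (*Chat*) and load it into vesicles with the vesicular acetylcholine transporter (*Slc18a3*), and acetylcholinesterase (*Ache*) breaks it down after release. In the striatum, the NAc included, the source is a small class of large local interneurons, whereas the hippocampus receives most of its acetylcholine through axons from the basal forebrain, whose cell bodies lie elsewhere. Acetylcholine acts on muscarinic receptors, which couple to G proteins (*Chrm1* and *Chrm3* to the Gq class, *Chrm2* and *Chrm4* to the Gi class), and on nicotinic receptors, which are ion channels: *Chrna7* forms channels of a single subunit, and *Chrna4* joins *Chrnb2* in the main high-affinity nicotine binding receptor of the brain.

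Levels are given in CPM, counts divided by the library size after scaling by the upper quartile of the counts. The deposited gene counts summed to between 11094002 and 21869773 per sample, with a median of 14533166.5. Striatal and thalamic markers set 5 libraries apart. The summed level of 8 markers of striatal medium spiny neurons was 268 CPM in NAc METH sample 3 and lay between 1719 and 9071 CPM in the other 7 NAc samples. It was 2011 CPM in DG saline sample 3 and between 178 and 471 CPM in the other 7 DG samples. In the SVZ, the summed level of 5 thalamic markers was 1826 CPM in saline sample 1, 1646 CPM in METH sample 2 and 1116 CPM in METH sample 4, and lay between 86.2 and 486 CPM in the other 5 samples, in which the striatal sum was between 1762 and 6457 CPM. *Fibcd1* and *Spink8*, markers of CA pyramidal neurons, were under 1 CPM in all 32 samples. The region labels come from the sample titles, and the markers do not separate the DG from the CA: the median log2 difference DG minus CA was −0.003 over the 4 CA pyramidal markers tested and 0.011 over 5 markers of dentate granule neurons, and 0 of either list had an unadjusted p under 0.05. *Prox1*, a transcription factor of granule neurons, was 151, 26.1, 29.6 and 74.6 CPM in the DG saline samples, 312, 269, 58.9 and 204 CPM in the DG METH samples, 251, 33.2, 296 and 83.8 CPM in the CA saline samples and 56.3, 52.6, 159 and 88.8 CPM in the CA METH samples. CA saline samples 1 and 3 thus each lay above at least 6 of the 8 DG samples, and the part of mixed DG and CA tissue in the results was not tested.

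Where leaving out the 5 libraries together changed a call between 2 regions for 1 of the 10 genes, this is stated beside it. The library numbers in the file headers bear on the DG as well: DG saline samples 1 and 2 carry numbers 20 and 21, and DG METH samples 1 and 2 numbers 14 and 15, whereas in the NAc and the CA numbers 14 and 15 are saline and 20 and 21 METH. The treatment labels of these 4 DG libraries could not be checked, and the groups follow the labels. In the SVZ, METH samples 1 and 2 share header number 1669, and METH samples 3 and 4 share number 1670. Whether these are 4 separate samples could not be checked. Going by the names in the headers, no SVZ library shares a sequencing run with a library of another region. Region and run therefore cannot be told apart in any comparison with the SVZ.

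*Chat* and *Slc18a3* share a locus, and their upstream sequences are shown because their levels moved together more closely than those of any other pair of the 10 genes. In the annotation of the files (build rn6, Ensembl), *Chat* covers chr16:8577840-8686131 on the minus strand, and *Slc18a3* is a single exon at chr16:8682669-8685529 on the same strand, inside a *Chat* intron of 4928 bases (chr16:8681102-8686029). The exons of the 2 genes share 0 bases. Reads of unspliced *Chat* RNA over that intron would fall in the *Slc18a3* exon. The counting cannot tell them apart from *Slc18a3* reads, since both genes lie on the same strand. All 10 genes had an entry in the RefSeq promoter table (build GRCr8), where the starts of *Chat* and *Slc18a3* lie 602 bases apart. The 250 bases before each start are printed 5′ to 3′ on the minus strand, *Chat* at chr16:7723417-7723666 and *Slc18a3* at chr16:7722815-7723064, with capitals for the matches to the motifs searched.
Chat: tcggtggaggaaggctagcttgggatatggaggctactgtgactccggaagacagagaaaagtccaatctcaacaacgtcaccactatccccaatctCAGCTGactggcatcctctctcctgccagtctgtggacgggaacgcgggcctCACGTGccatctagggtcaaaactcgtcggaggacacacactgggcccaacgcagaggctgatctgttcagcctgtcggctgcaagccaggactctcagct
Slc18a3: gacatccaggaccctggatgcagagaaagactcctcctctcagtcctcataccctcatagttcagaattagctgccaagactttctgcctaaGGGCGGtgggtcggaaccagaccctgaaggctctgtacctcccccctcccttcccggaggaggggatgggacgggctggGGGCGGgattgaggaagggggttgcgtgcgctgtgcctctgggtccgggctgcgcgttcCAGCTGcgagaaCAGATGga

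Both strands were searched for the E-box letters CANNTG and for CACGTG, 1 of the palindromes among them, which every search for the former also finds. The GC box GGGCGG, the homeodomain core TAATTA and the cyclic AMP response element TGACGTCA were searched likewise. *Chat* held 2 matches to CANNTG, 1 of them CACGTG, and *Slc18a3* held 2 matches to CANNTG and 2 to GGGCGG. Of 33469 promoters of the same length, 65.5% held CANNTG, 5.59% CACGTG, 30.5% GGGCGG, 4.86% TAATTA and 1.59% TGACGTCA. None of the 10 windows held TAATTA or TGACGTCA, and the windows of *Ache* and *Chrna7* also held CACGTG. A match is a run of letters and not a measured binding site.

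*Chat* was high in the NAc, intermediate in the SVZ and close to 0 in both hippocampal regions. In the 8 NAc samples its level ran from 13.8 to 38.5 CPM with a median of 21.2 CPM. In the SVZ it ran from 0.661 to 18.1 CPM with a median of 10.2 CPM. The DG median was 0.462 CPM and the CA median 0.175 CPM. In the DG, 7 samples lay between 0.123 and 0.987 CPM, while saline sample 3, which was also set apart by striatal markers, stood at 14.6 CPM with 229 counts. In the CA, 7 samples held 0 to 6 counts and METH sample 3 held 35 counts (2.27 CPM), beside the highest striatal marker sum of the CA samples (746 CPM). A count of 0, found in CA METH sample 2, allows up to 3 counts by counting error alone.

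*Slc18a3* followed the same order at the top. Its median was 13.9 CPM in the NAc (10.0 to 28.6 CPM) and 6.27 CPM in the SVZ (1.23 to 15.5 CPM). It was 0.678 CPM in the CA and 0.57 CPM in the DG, where saline sample 3 again stood alone at 9.72 CPM. Every NAc sample lay above all DG and CA samples for *Slc18a3*, and for *Chat* DG saline sample 3 alone reached the NAc range. The NAc and SVZ samples overlapped for both genes.

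**Figure D1:**
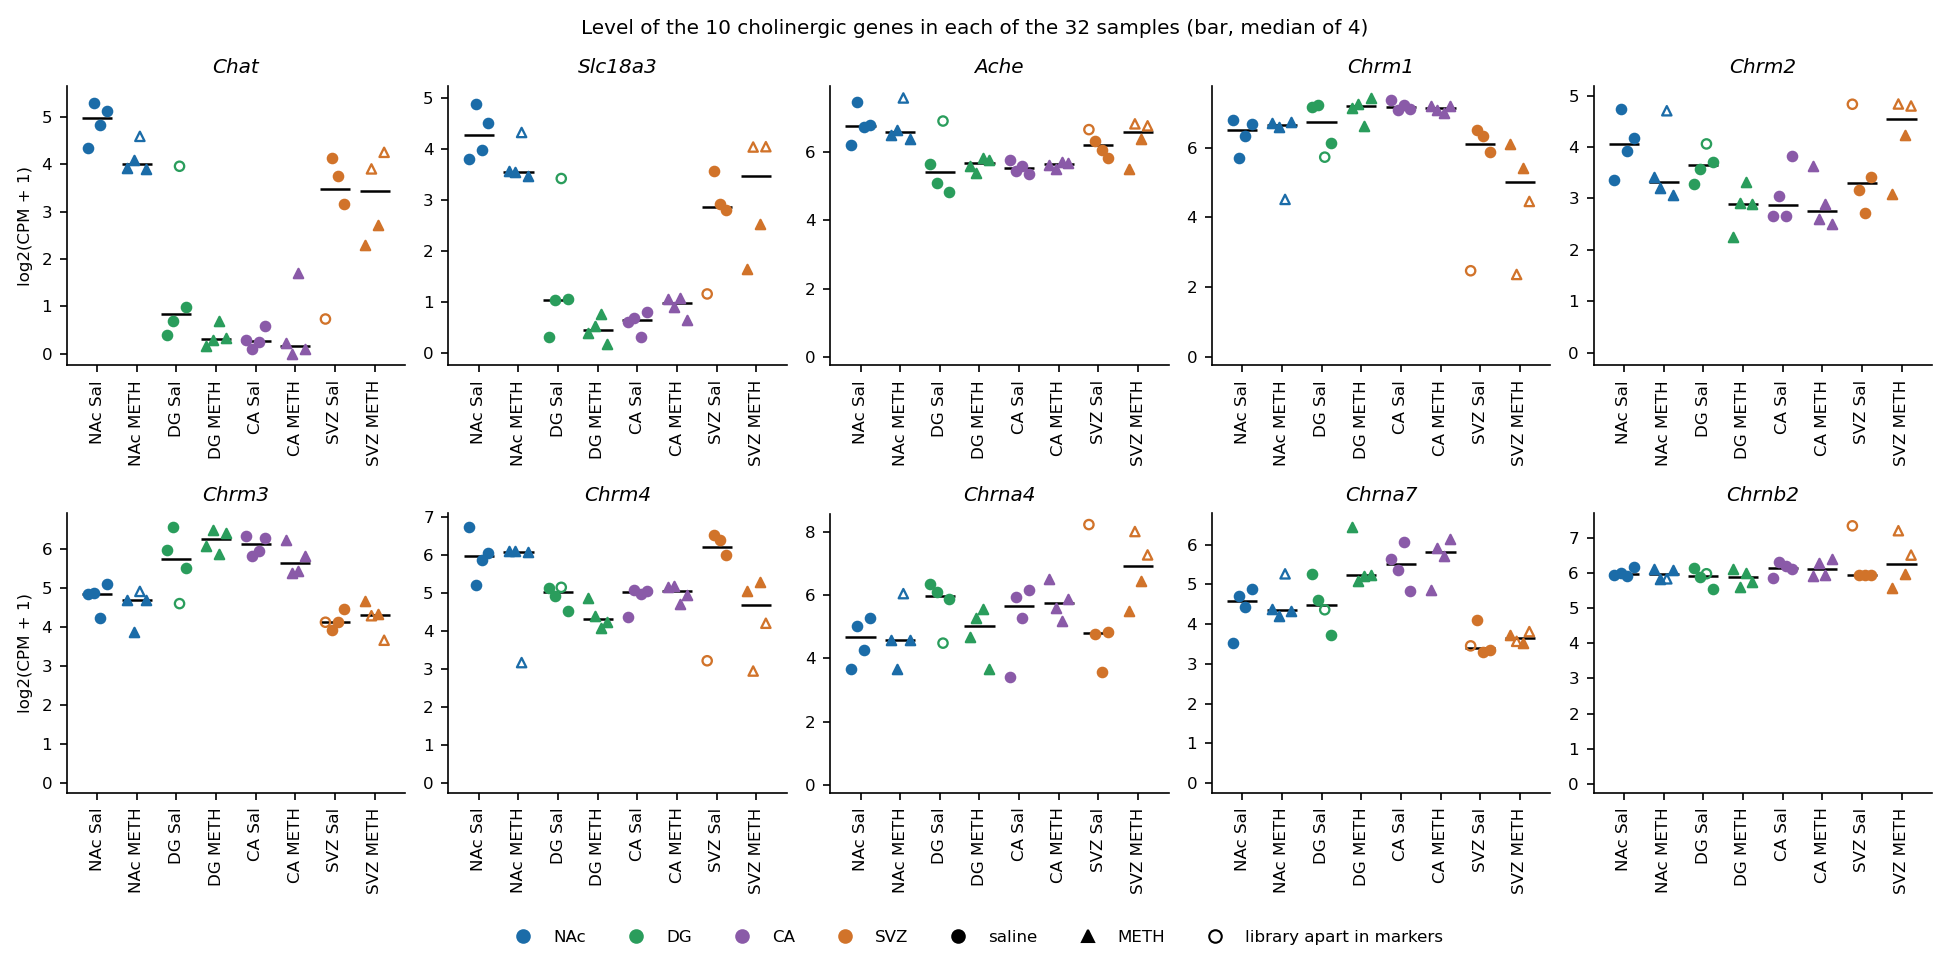
Level of each of the 10 genes, as log2(CPM + 1), in the 32 samples by group (saline or METH in 4 regions, 4 samples each); bars are group medians and open symbols are the 5 libraries set apart by striatal or thalamic markers. *Chat* and *Slc18a3* are high in the NAc and SVZ and near 0 in the DG and CA. *Chrnb2* is level across groups outside the SVZ. In the panels of *Chrm1*, *Chrm4* and *Chrna4*, the open symbols of the NAc and SVZ lie outside the filled ones of their groups.

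The differences of *Chat* and *Slc18a3* between the regions were tested with edgeR's quasi-likelihood test in a fit of all 32 samples, averaged over saline and METH; a gene is called at a false discovery rate (FDR) under 0.01 and a fold above 2. *Chat* was higher in the NAc than in the CA by 5.78 (log2, SE 0.79, 95% CI 4.15 to 7.41) and higher than in the DG by 4.26 (SE 0.72, FDR 4.44e-04). *Slc18a3* was higher in the NAc than in the CA by 4.51 (SE 0.58) and higher than in the DG by 3.80 (SE 0.56). Both genes were also called higher in the SVZ than in the DG and the CA, *Chat* by log2 differences of −3.08 (DG minus SVZ) and −4.60 (CA minus SVZ), and *Slc18a3* by −2.76 and −3.47. In bulk tissue, fewer cholinergic cells and less RNA per cell cannot be told apart. In the comparisons with the SVZ, region and sequencing run cannot be told apart either.

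The NAc and the SVZ did not differ in *Chat* by this rule (log2 difference 1.18, 95% CI −0.04 to 2.40, FDR 0.166). The *Slc18a3* difference between them was 1.05 (FDR 0.126) with all libraries, and 1.47 and called (FDR 0.00360) without the 5 libraries. Without those libraries the *Chat* difference was 5.52 for NAc minus DG, −4.07 for DG minus SVZ and −4.23 for CA minus SVZ, and that of *Slc18a3* was 4.66, −3.19 and −2.91, all of them called. DG saline sample 3 carries most of the *Chat* counts of the DG, and the part of striatal tissue in that library was not tested.

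*Chat* and *Slc18a3* rose and fell together over the samples. The Pearson correlation of log2(CPM + 1) was 0.982 over 32 samples and 0.982 over the 27 that remain without the libraries set apart. Over 8 samples each it was 0.946 in the NAc, 0.986 in the DG, 0.938 in the SVZ and 0.453 in the CA, where the counts are near 0. These points share regions, runs and a locus, and the values are descriptions. Per kilobase of exon, *Chat* was 1.32 to 2.00 times *Slc18a3* in the NAc samples, with a median ratio of 1.57, and 0.589 to 2.07 times in the SVZ, with a median of 1.37. The 3 SVZ libraries with thalamic markers went different ways, since saline sample 1 had the lowest *Chat* of the SVZ (0.661 CPM) and METH sample 4 the highest (18.1 CPM).

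**Figure D2:**
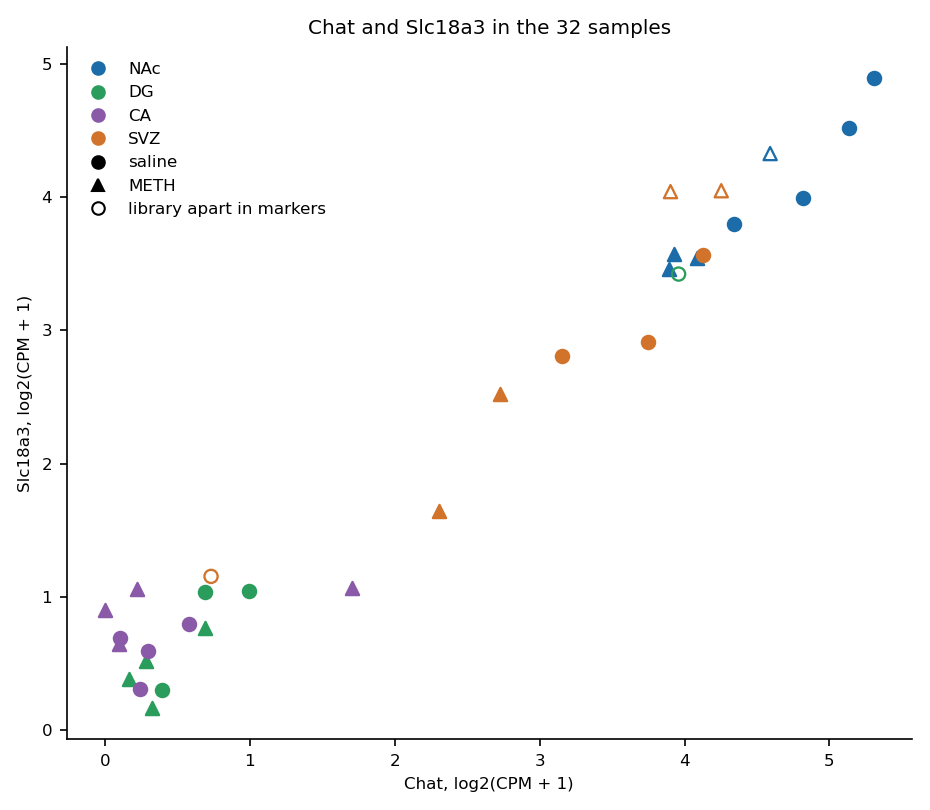
*Chat* (x axis) against *Slc18a3* (y axis), both as log2(CPM + 1), in the 32 samples; colour gives the region, circles saline, triangles METH, and open symbols the 5 libraries set apart. The points lie along 1 line (r = 0.982), with NAc samples at the top, SVZ samples spread along it and DG and CA samples near 0 apart from DG saline sample 3.

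*Ache* was present in every sample and higher in the NAc. Its 18 annotated exon intervals lie at chr12:22472358-22478753 (rn6, minus strand), where 114 exon bases are shared with a small RNA entry. The NAc median was 102 CPM (72.1 to 189 CPM), the SVZ median 80.2 CPM (44.5 to 112 CPM), the DG median 48.3 CPM (27.4 to 118 CPM) and the CA median 47.2 CPM (39.6 to 52.7 CPM). The CA samples formed the tightest set, and none of them reached the lowest NAc sample. The NAc exceeded the CA by 1.3 (log2, SE 0.25, FDR 4.95e-04) and the DG by 1.12 (SE 0.25, FDR 0.00342). The call against the DG was lost without NAc saline sample 2, NAc METH sample 3 or DG saline sample 1, each left out alone, with values from 0.94 to 1.44 over all 32 such fits. The difference between the CA and the SVZ was −0.78 (FDR 0.0136) and that between the NAc and the SVZ 0.52 (FDR 0.140), neither of them called.

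Of the muscarinic receptors, *Chrm1* and *Chrm3*, the Gq-coupled pair, had their highest medians in the hippocampal regions. *Chrm1* (chr1:224882439-224884205, rn6, plus strand) had a median of 141 CPM in both the CA and the DG, whereas the median was 98.4 (NAc) and 49.6 CPM (SVZ) elsewhere. Its CA samples ran from 126 to 164 CPM and its DG samples from 51.9 to 170 CPM, the lowest of them being DG saline sample 3. In the SVZ the values were 4.53, 89.2, 78.9 and 57.7 CPM in the saline samples and 67.2, 4.14, 41.4 and 20.9 CPM in the METH samples, so that the 3 libraries with thalamic markers held the 3 lowest values. The CA exceeded the SVZ by 1.69 (log2, SE 0.44, FDR 0.00330), and by 1.15 without the 5 libraries. The DG exceeded the SVZ by 1.45, which was not called with all libraries (FDR 0.0148) and was called without the 5 (1.01, FDR 6.61e-04). Against the NAc, *Chrm1* was not called: the difference was −0.52 for NAc minus DG (FDR 0.451) and −0.76 for NAc minus CA (FDR 0.193).

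*Chrm3* (chr17:63990599-63994169, rn6, minus strand) separated the hippocampal regions from the other regions more evenly. Its medians were 64.2 (DG), 58.3 (CA), 26.2 (NAc) and 17.6 CPM (SVZ). The DG samples ran from 23.3 to 93.6 CPM and the CA samples from 41.1 to 79.9 CPM, while no SVZ sample exceeded 24.4 CPM and no NAc sample 33.2 CPM. All CA samples lay above all NAc and SVZ samples, and in the DG only saline sample 3 fell among them. The log2 differences called were −1.37 (NAc minus DG, SE 0.22), −1.27 (NAc minus CA, SE 0.21), 1.86 (DG minus SVZ, SE 0.22) and 1.76 (CA minus SVZ, SE 0.22). These 4 calls were kept in each of the 32 fits that left out 1 library.

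*Chrm4*, the Gi-coupled receptor known from striatal projection neurons, and *Chrm2*, an autoreceptor of cholinergic terminals among other roles, had their highest medians outside the hippocampus. *Chrm4* (chr3:80833272-80841006, rn6, plus strand; 2 exon bases are shared with *Mdk* on the other strand) had medians of 65.5 (NAc), 34.9 (SVZ), 31.3 (CA) and 25 CPM (DG). NAc METH sample 3 stood at 8.0 CPM, against 36.1 to 105 CPM in the other 7 NAc samples. The NAc minus DG difference was 1.25 and missed the rule (FDR 0.0298), and without the 5 libraries it was 1.46 and called (FDR 7.12e-06). The NAc minus CA difference likewise went from 0.97 (FDR 0.0621) to 1.15 and called (FDR 4.43e-05). The DG minus SVZ difference of −0.62 (FDR 0.235) was also called without the 5 libraries.

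*Chrm2* (chr4:64088900-64091090, rn6, plus strand) had medians of 13.8 (SVZ), 11.9 (NAc), 8.90 (DG) and 5.88 CPM (CA), and the ranges of all 4 regions overlapped. The CA minus SVZ difference of −1.13 was called (SE 0.34, FDR 0.00987), but not under TMM normalization (FDR 0.0133), not in 24 of the 32 fits that left out 1 library, and not without the 5 libraries (−0.44, FDR 0.224). The SVZ values were 27.5, 7.99, 5.54 and 9.74 CPM with saline and 7.46, 27.6, 17.8 and 26.8 CPM with METH. The 3 highest were the libraries with thalamic markers.

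*Chrna7* had its highest median in the CA. It lies at chr1:123899657-124039196 (rn6, minus strand) and had medians of 50.6 (CA), 34.7 (DG), 20.2 (NAc) and 10.7 CPM (SVZ). The CA samples ran from 27.3 to 69.4 CPM and the SVZ samples from 8.91 to 16.1 CPM, with no overlap. *Chrna7* was called higher in the CA than in the SVZ by 2.11 (log2, SE 0.27, FDR 3.28e-06), higher in the DG than in the SVZ by 1.55 (SE 0.26), and lower in the NAc than in the CA by 1.13 on the log2 scale (difference −1.13, SE 0.26, FDR 0.00204). The last of these was not called when the library number in the file headers was entered as a block (−1.08, FDR 0.0212). The NAc minus DG difference of −0.57 (FDR 0.138) and the DG minus CA difference of −0.56 (FDR 0.612 by edgeR) did not pass.

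*Chrna4* (chr3:176527516-176548208, rn6, minus strand) varied most within the SVZ. The saline samples stood at 298, 26.1, 11 and 27.3 CPM and the METH samples at 43.8, 256, 85.2 and 153 CPM. The 3 libraries with thalamic markers held the 3 highest values of all 32 samples, and the other 5 SVZ samples lay between 11 and 85.2 CPM, within the range of the CA samples (9.71 to 91.0 CPM). With all libraries the SVZ median was the highest at 64.5 CPM, followed by the medians of the CA (52.6 CPM), the DG (42.3 CPM) and the NAc (23.2 CPM). Without the 5 libraries the SVZ median was 27.3 CPM. The NAc minus SVZ difference of −2.0 (FDR 0.0165) was then −0.76, and the DG minus SVZ and CA minus SVZ differences of −1.42 and −1.12 changed sign to 0.292 and 0.451.

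*Chrnb2*, the partner subunit (chr2:189088570-189096785, rn6, minus strand), was the most even of the 10 genes. Its region medians were 69.8 (CA), 61.1 (NAc), 61.0 (SVZ) and 59.6 CPM (DG), with a ratio of 1.17 between the highest and the lowest. The same ratio was 121 for *Chat*, 4.74 for *Chrna7* and 3.65 for *Chrm3*. Only in the SVZ did *Chrnb2* spread, at 160, 60.8, 59.8 and 60.3 CPM with saline and 46.4, 145, 61.2 and 89.6 CPM with METH, the 3 highest again being the libraries with thalamic markers. No pair of regions was called for *Chrnb2*, and the 95% CI of its log2 difference was −0.30 to 0.51 for NAc minus DG, −0.55 to 0.26 for NAc minus CA and −0.65 to 0.16 for DG minus CA. Against the SVZ the differences were −0.46 for the NAc (95% CI −0.86 to −0.05, FDR 0.106) and −0.56 for the DG (95% CI −0.96 to −0.15, FDR 0.0352), whose intervals leave 0 outside, and −0.31 for the CA (95% CI −0.71 to 0.09). Without the 5 libraries the first of these was 0.153 and the second 0.0124.

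Within the SVZ, 5 receptor genes followed the thalamic marker sum. Over the 8 SVZ samples, the Pearson correlation of log2(CPM + 1) with that sum was 0.961 for *Chrm2*, 0.929 for *Chrna4* and 0.885 for *Chrnb2*, and −0.939 for *Chrm1* and −0.920 for *Chrm4*. *Chat* (−0.278), *Slc18a3* (0.045), *Chrm3* (−0.242) and *Chrna7* (−0.232) did not follow it, and *Ache* stood between (0.783). With the striatal sum the values were 0.973 for *Chrm4*, 0.945 for *Chrm1* and −0.924 for *Chrna4*. The points are shared by all these values and fall into 2 sets of 3 and 5 libraries, so they describe the samples only, and the part of the tissue composition in the SVZ levels was not tested.

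**Figure D3:**
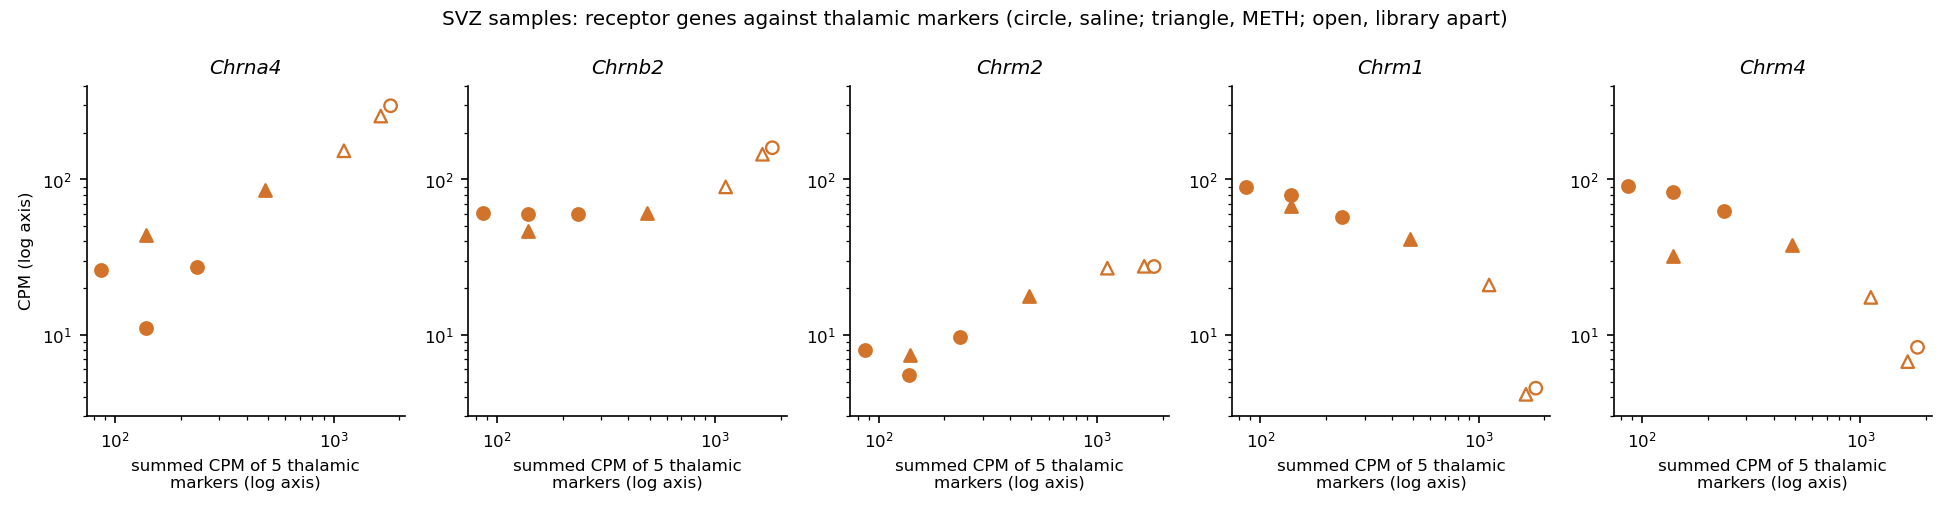
Level of 5 receptor genes (y axis, CPM, log axis) against the summed CPM of 5 thalamic markers (x axis, log axis) in the 8 SVZ samples; circles are saline, triangles METH, and open symbols the 3 SVZ libraries set apart by these markers. *Chrna4*, *Chrnb2* and *Chrm2* are highest and *Chrm1* and *Chrm4* lowest in the 3 open symbols, of which 1 is saline and 2 are METH.

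The number of the 10 genes called between 2 regions ran from 0 to 6. Between the NAc and the CA 5 genes were called (*Chat*, *Slc18a3*, *Ache*, *Chrm3*, *Chrna7*), where 5.14% of all 16122 genes tested were called. Between the NAc and the DG 4 were called (*Chat*, *Slc18a3*, *Ache*, *Chrm3*), against 2.88% of all genes. The CA and the SVZ differed in 6 genes (9% of all genes) and the DG and the SVZ in 4 (4.31% of all genes). Comparisons with the SVZ are also comparisons between sequencing runs.

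Between the NAc and the SVZ edgeR called 0 of the 10 genes (1.33% of all genes), 7 had an unadjusted p under 0.05 (32.9% of all genes), and DESeq2 called 1, *Chrna4*. Between the DG and the CA edgeR called 0 of the 10 and 0% of all genes, 1 gene, *Chrna7*, had an unadjusted p under 0.05 (8.02% of all genes), and DESeq2 called 0. The median log2 difference over all genes lay between −0.10 and 0.07 in the 6 pairs. The 10 genes were chosen with earlier results of these data known, so the shares are read beside each other and not tested.

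**Figure D4:**
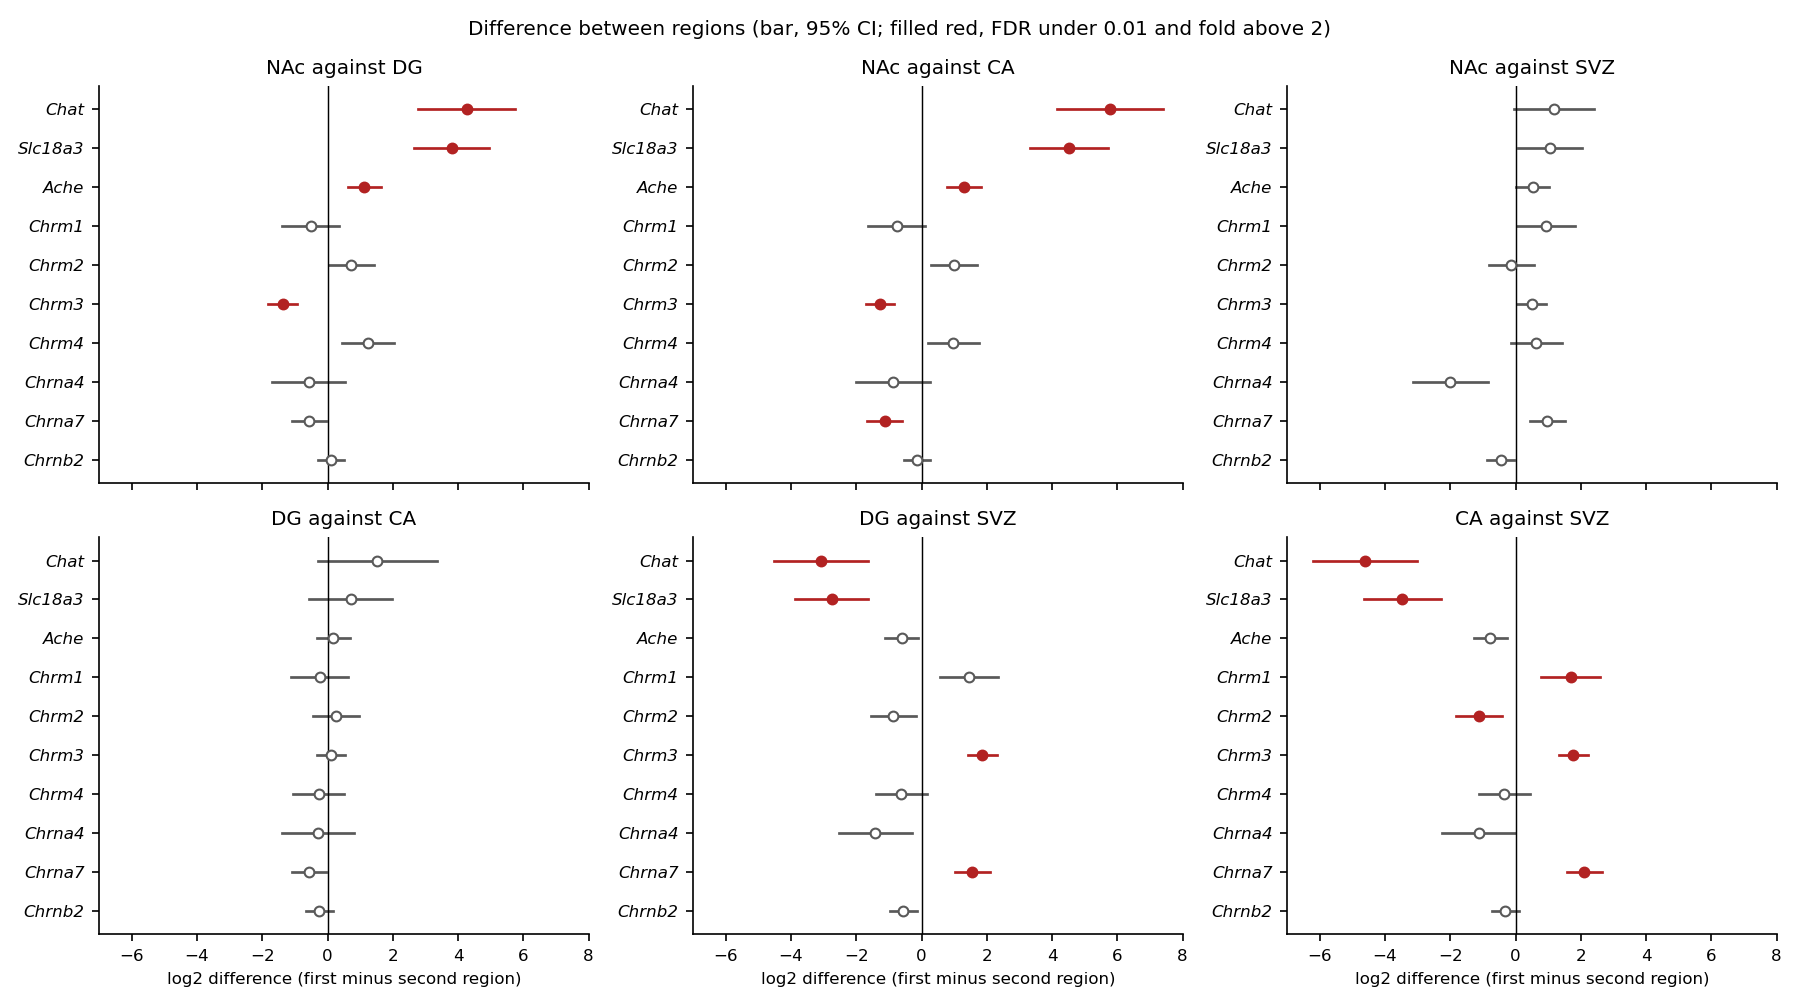
Log2 difference between each pair of regions (first minus second, x axis) for the 10 genes, averaged over saline and METH, with 95% CI bars; red filled points passed FDR under 0.01 and a fold above 2. The panels of the NAc against the DG and CA and of the DG and CA against the SVZ hold the red points, and the DG against CA and NAc against SVZ panels hold none.

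The same question was asked within each treatment with a test of any difference among the 4 regions. In the 16 METH samples 5 genes passed FDR under 0.01 by edgeR, against 10.7% of all genes: *Slc18a3* (FDR 2.21e-04), *Chrm3* (4.49e-04), *Chat* (8.16e-04), *Chrna7* (0.00199) and *Ache* (0.00803). *Ache* passed in only 3 of the 16 fits that left out 1 library. In the 16 saline samples edgeR called 0 of the 10 genes and 0% of all genes, 5 had an unadjusted p under 0.05 (26.7% of all genes), and DESeq2 called 4. The lowest values there were those of *Chrm3* (FDR 0.0186), *Slc18a3* (0.0259), *Chat* (0.0277) and *Chrna7* (0.0280). Without DG saline sample 3, *Chat*, *Slc18a3*, *Ache* and *Chrm3* were called in the saline samples.

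Compared per kilobase of exon, *Chrm1* had the highest median of the 10 genes in every region, at 55.7 CPM per kilobase in the NAc, 79.6 in the DG, 79.9 in the CA and 28.0 in the SVZ. *Ache* followed in the NAc at 30.6 and *Chrnb2* in the CA at 31.7 CPM per kilobase. *Slc18a3* was the lowest in the NAc (4.86) and the SVZ (2.19), and *Chat* the lowest in the DG (0.177) and the CA (0.0667 CPM per kilobase).

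METH was then compared with saline within each region. None of the 10 genes was called in any region by edgeR at FDR under 0.01 and a fold above 2, and none by DESeq2. The share of all genes called by edgeR was 0% in the NAc, 0% in the DG, 0% in the CA and 0% in the SVZ. Of 37 tests of these genes over the 4 regions (*Chat* was too low to test in the DG and CA, and *Slc18a3* in the CA), 19 log2 fold changes were above 0 and 18 below, with a median of 0.00213 and a lowest FDR of 0.269. For none of the 10 genes did the 4 METH samples lie entirely above or below the 4 saline samples, where 2.26% of all genes tested did so in the NAc, 7.39% in the DG, 4.43% in the CA and 1.6% in the SVZ.

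**Figure D5:**
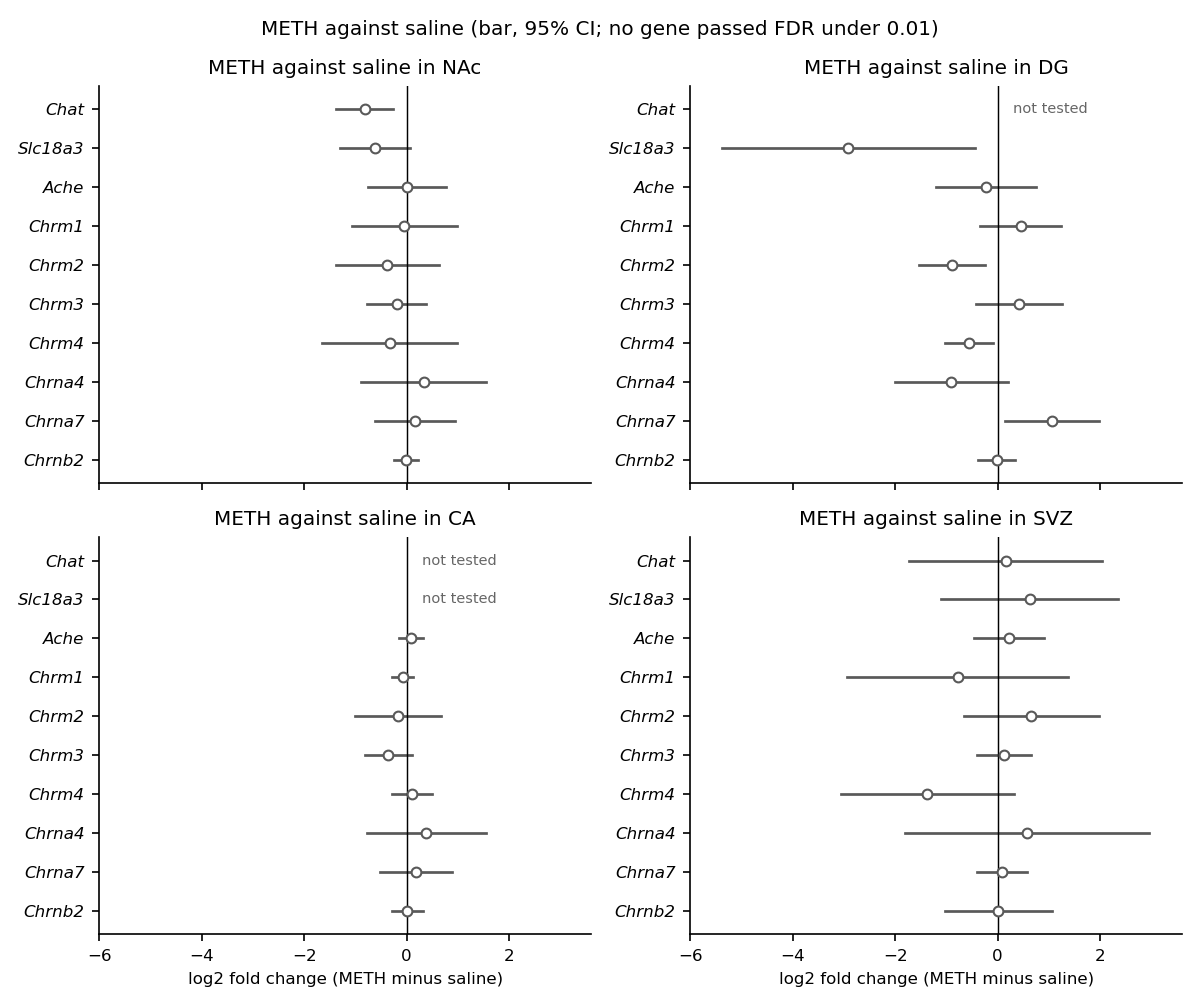
Log2 fold change of METH over saline (x axis) for the 10 genes in each of the 4 regions, with 95% CI bars; genes too low to test are marked. No gene passed FDR under 0.01. *Chat* in the NAc and *Slc18a3*, *Chrm2*, *Chrm4* and *Chrna7* in the DG have intervals that leave 0 outside. The widest interval is that of *Slc18a3* in the DG. For *Chrm1*, *Chrm2*, *Chrm4*, *Chrna4* and *Chrnb2* the widest interval is in the SVZ.

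In the NAc, 1 of the 10 genes had an unadjusted p under 0.05, against 3.39% of all genes, and this was *Chat*. Its level was 19.3, 38.5, 27.3 and 34.1 CPM in the saline samples and 14.2, 16, 23.1 and 13.8 CPM in the METH samples. The 2 groups overlapped through METH sample 3, the library with few striatal markers, and saline sample 1. The log2 fold change was −0.81 (a 1.76-fold lower level, SE 0.24, 95% CI −1.37 to −0.26) with an unadjusted p of 0.00915 and an FDR of 0.999 by edgeR. Without METH sample 3 it was −1.01 (FDR 0.908), with the sequencing run as a covariate −1.01 as well, and in the 8 fits that left out 1 library it lay between −1.01 and −0.67. Within the 1 run that held both groups, the saline samples stood at 27.3 and 34.1 CPM and the METH samples at 14.2 and 16 CPM.

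*Slc18a3* in the NAc was 12.9, 28.6, 14.9 and 21.9 CPM with saline and 10.9, 10.7, 19.1 and 10.0 CPM with METH, a log2 fold change of −0.61 (95% CI −1.30 to 0.07, FDR 0.999). METH samples 1, 2 and 4 lay below all saline samples, and METH sample 3 among them. The other 8 genes had log2 fold changes between −0.37 (*Chrm2*) and 0.33 (*Chrna4*) in the NAc. The narrowest interval was that of *Chrnb2*, −0.25 to 0.22. NAc METH sample 3 was the highest of the 4 METH samples for *Chat*, *Slc18a3*, *Ache*, *Chrm2*, *Chrm3*, *Chrna4* and *Chrna7* and the lowest for *Chrm1* and *Chrm4*. It was also the lowest for *Chrnb2*, by little (55.8 CPM, against 55.9 CPM in METH sample 2).

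In the DG, 4 of 9 genes tested had an unadjusted p under 0.05, against 12.8% of all genes, and none passed the FDR. *Chrm2* was 8.77, 10.9, 15.7 and 12.1 CPM with saline and 3.75, 6.50, 9.02 and 6.41 CPM with METH, with METH sample 3 above saline sample 1. Its log2 fold change was −0.88 (SE 0.28, 95% CI −1.53 to −0.24, FDR 0.269 by edgeR), and it kept an unadjusted p under 0.05 in all 8 fits that left out 1 library. It was −0.72 without DG saline sample 3. Sequencing run and treatment can be told apart here only through the 1 run that held DG samples of both groups. Its single saline sample was DG saline sample 3. With the run as a covariate, the log2 fold change in the DG was −1.62 for *Chrm2*, −4.70 for *Slc18a3*, −0.52 for *Chrm4* and 1.59 for *Chrna7*. These values rest on that 1 saline sample, so the part of the run was not settled.

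*Chrna7* in the DG was 37.1, 23.3, 19.6 and 12.2 CPM with saline and 85.6, 33.1, 36.3 and 36.9 CPM with METH. Saline sample 1 lay above 3 of the METH samples, and METH sample 1 stood far above the rest. The log2 fold change of 1.06 (95% CI 0.14 to 1.98, FDR 0.334) was 0.63 without METH sample 1 and kept an unadjusted p under 0.05 in 4 of 8 such fits. *Chrm4* was 33.9, 29.5, 34.4 and 22.0 CPM with saline and 27.9, 20.1, 15.7 and 17.7 CPM with METH, a log2 fold change of −0.56 (95% CI −1.03 to −0.08, FDR 0.324) that kept an unadjusted p under 0.05 in 3 of 8 fits. *Slc18a3* was 0.235, 1.05, 9.72 and 1.07 CPM with saline and 0.307, 0.433, 0.705 and 0.126 CPM with METH. Its log2 fold change of −2.91 (FDR 0.320) rested on saline sample 3 and was −0.94 without it (FDR 0.589 by edgeR).

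Markers of the tissue moved with treatment in the DG as well. The 5 dentate granule markers had a median log2 fold change of 1.51 after METH, with 3 above 0 and 2 below, and their summed level was 155 to 311 CPM with saline and 166 to 546 CPM with METH. All 8 striatal markers lay below 0 with a median of −2.16, and without DG saline sample 3 the striatal median was 0.02 and the granule median 1.3. Over the 8 DG samples, the Pearson correlation with the summed granule level was −0.838 for *Chrm2* and 0.719 for *Chrna7*, a description over points that share treatment and run. The part of tissue composition and of the library numbers given above in the DG differences was not tested.

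*Chat* in the DG, not tested for its low counts, was 4, 7, 229 and 12 counts with saline and 2, 3, 13 and 4 counts with METH. Saline sample 3 stood alone, and the other 7 samples overlapped. *Chrnb2* in the DG had a log2 fold change of −0.02 (95% CI −0.37 to 0.33).

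In the CA, 0 of 8 genes tested had an unadjusted p under 0.05 by edgeR, against 7.16% of all genes, and the log2 fold changes ran from −0.36 (*Chrm3*) to 0.38 (*Chrna4*). The intervals were narrow for *Chrm1* (−0.28 to 0.12) and *Ache* (−0.14 to 0.32). In the SVZ, 0 of 10 genes had an unadjusted p under 0.05 by edgeR, against 2.58% of all genes. The METH libraries there share header numbers, as given above. The intervals were wide for *Chrm1* (−2.94 to 1.37) and *Chrna4* (−1.80 to 2.96), and narrower for *Chrm3* (−0.40 to 0.64) and *Chrna7* (−0.39 to 0.58). *Chrm4* there was 8.31, 90.4, 83.0 and 62.4 CPM with saline and 32, 6.72, 37.8 and 17.4 CPM with METH (log2 fold change −1.37, 95% CI −3.07 to 0.32, FDR 0.979), and its lowest values were again the libraries with thalamic markers. *Chat* in the SVZ was 0.661, 16.5, 12.4 and 7.90 CPM with saline and 3.94, 14, 5.61 and 18.1 CPM with METH, with the groups interleaved (0.16, 95% CI −1.73 to 2.04).

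Averaged over the 4 regions, edgeR called 0 of the 10 genes for METH (0% of all genes), 0 had an unadjusted p under 0.05 (7.83% of all genes), and DESeq2 called 0. The values nearest to it were 0.37 for *Chrna7* (95% CI −0.00 to 0.74) and −0.54 for *Chrm4* (95% CI −1.10 to 0.01). A test of whether the METH effect differed between the regions called 0 of the 10 genes (0% of all genes) by edgeR and 0 by DESeq2. An unadjusted p under 0.05 was reached by 2 genes, *Slc18a3* (FDR 0.460) and *Chat* (FDR 0.554), against 7.74% of all genes. The METH effect on *Chat* in the NAc was therefore not shown to differ from that in the other regions.

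The other genes of the pathway were counted in 5 lists, which were chosen with earlier results of these data known. Genes that mark cholinergic neurons (8 tested in the NAc, among them *Slc5a7*, the choline transporter of cholinergic terminals) all had log2 fold changes below 0 after METH in the NAc, with a median of −0.80. None was called, and 2 had an unadjusted p under 0.05, *Slc5a7* among them (−0.77, FDR 0.999). The median over all genes tested was 0.03. The 8 striatal markers also all lay below 0 in the NAc (median −0.63), as did 3 of the 4 CA pyramidal markers tested (median of the 4 −0.68). Without NAc METH sample 3, 7 of the 8 cholinergic neuron genes lay below 0 with a median of −0.97, and 6 of the 8 striatal markers with a median of −0.24. The part of tissue composition was not tested. In the DG the median of the 5 cholinergic neuron genes tested was −0.92, and 0.28 without saline sample 3, and *Ngfr*, the low-affinity neurotrophin receptor, was lowest in p (log2 fold change −2.67, FDR 0.287). *Ngfr* in the DG was 0.940, 0.699, 10.9 and 2.71 CPM with saline and 0.307, 0.867, 0.892 and 0.314 CPM with METH. Saline sample 3 held 171 of its 265 DG counts. *Ngfr* also had the lowest p of the list in the CA (1.75, FDR 0.669) and in the SVZ (2.93, FDR 0.979), where the median of 8 was 0.39. In the CA *Ngfr* lay between 0.170 and 2.66 CPM. In the SVZ, METH samples 2 and 4, both with thalamic markers, stood at 28.3 and 34.5 CPM, and the others between 1.04 and 3.59 CPM.

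With all libraries, the calls of cholinergic neuron genes between regions had the same direction as *Chat*. Without the 5 libraries *Zic4* went the other way between the NAc and the SVZ, as given below. Against the CA, 6 of 8 were called higher in the NAc (5.14% of all genes called in either direction), with log2 differences of 4.27 for *Slc5a7*, 4.18 for *Ngfr* and 3.47 for *Gbx1*. *Ngfr* was uneven in the NAc, at 1.28, 52.7, 18.5 and 37.3 CPM with saline and 2.91, 1.64, 31.6 and 0.869 CPM with METH. Its CA samples lay between 0.170 and 2.66 CPM. NAc saline samples 2, 3 and 4 and METH sample 3 were also the highest NAc samples for *Chat*. The part of tissue composition in these values was not tested. *Lhx8* and *Isl1*, transcription factors of forebrain cholinergic neurons, were also called, but both were at 0 counts in 6 of 8 CA samples, so that the size of the difference is not given. Their NAc levels ran from 6.48 to 37.0 CPM for *Lhx8* and from 8.49 to 18.6 CPM for *Isl1*, and CA METH sample 3 held 22 of 25 and 32 of 34 of their CA counts.

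Against the DG, 4 of 8 were higher in the NAc (2.88% of all genes): *Slc5a7* (3.62), *Ngfr* (3.38), *Gbx1* (2.97) and *Lhx8*, which was at 0 in 6 of 8 DG samples with 321 of its 327 DG counts in saline sample 3. Without the 5 libraries 7 of 8 were called. Of the 8 striatal markers, 8 were called higher in the NAc than in the CA and 7 than in the DG. Against the SVZ, the CA was lower in 5 of 8 (9% of all genes): *Zic4* (−3.68), *Slc5a7* (−3.05), *Ngfr* (−2.77, and −1.01 and not called without the 5 libraries), *Lhx8* and *Isl1*. The DG was lower than the SVZ in 2 of 8 (4.31% of all genes), *Slc5a7* (−2.40) and *Isl1*, which was at 0 in 6 of 8 DG samples with 303 of its 386 DG counts in saline sample 3. Striatal markers were called lower than in the SVZ in 8 of 8 (CA) and 6 of 8 (DG). Between the NAc and the SVZ 0 of the 8 were called by edgeR and 5 had an unadjusted p under 0.05 (32.9% of all genes), and without the 5 libraries *Slc5a7* (1.47) and *Zic4* (−2.44) were called. Between the DG and the CA 0 were called and 3 had an unadjusted p under 0.05 (8.02% of all genes).

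Of 14 other receptor subunits 13 were in the files, and *Chrna1*, *Chrna9*, *Chrna10* and *Chrnd* were under 1 CPM in all 32 samples. *Chrna6*, the subunit of catecholaminergic terminals and neurons, was called higher in the SVZ than in each other region with all libraries. It was 8.31, 6.57 and 2.96 CPM in the 3 SVZ libraries with thalamic markers and 0 to 1.84 CPM in the other 5, and it was at 0 in 6 of 8 samples of each of the NAc, DG and CA. Without the 5 libraries it was too low to test. *Chrnb3*, higher in the SVZ than in the CA (−3.00), stood at 5.66, 4.19 and 2.16 CPM in those 3 libraries and at 0 to 1.24 CPM in the other 5, and the difference was −1.04 and not called without them. The part of thalamic tissue in both was not tested. *Chrna2* was higher in the DG (1.42) and the CA (1.55) than in the SVZ, and *Chrm5* was higher in the CA than in the SVZ (2.20); these 3 calls were kept without the 5 libraries (1.1, 1.24 and 2.01). After METH none of them was called. Unadjusted p-values under 0.05 were those of *Chrna2* (1.07, FDR 0.166) and *Chrna3* (−4.02, FDR 0.281) in the DG by edgeR, and *Chrnb4* averaged over the regions (−1.66). In the DG, saline sample 4 stood apart for *Chrnb4* (182 CPM) and *Chrna3* (88.9 CPM).

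Of the 3 esterase partners, *Prima1*, which anchors acetylcholinesterase in the membrane, was called higher in the NAc than in the DG (1.47) and the CA (2.18), and lower in the DG (−1.36) and the CA (−2.06) than in the SVZ. *Colq*, the collagen tail of the enzyme, was lower in the CA than in the SVZ (−2.04), and not called without the 5 libraries (−1.09). The 4 *Prima1* calls were kept without them. After METH the lowest p-values were those of *Prima1* in the NAc (−0.46, FDR 0.999) and *Bche* in the DG (0.49, FDR 0.215), without a call by edgeR.

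Of the 7 chaperones and Ly6 proteins that modulate nicotinic receptors, *Lypd6* was higher in the DG (1.55) and the CA (1.78) than in the SVZ, *Lypd6b* likewise (1.38 and 1.21) and higher in the NAc than in the SVZ (1.97), *Ly6h* was higher in the CA than in the SVZ (1.15), and *Lypd1* higher in the NAc than in the DG (1.66). Without the 5 libraries the *Lypd6b* differences of the DG and the CA (0.942 and 0.831) and that of *Ly6h* (0.744) were not called. Of 15 genes of muscarinic signalling, the G protein-gated potassium channel genes *Kcnj3* and *Kcnj6* were called lower in the NAc than in the DG (−1.60 and −2.22) and the CA (−1.60 and −2.26), and higher in the DG (1.35 and 1.75) and the CA (1.34 and 1.79) than in the SVZ. The phospholipase gene *Plcb4* was higher in the SVZ than in the DG (−1.82) and the CA (−2.66), neither of which was called without the 5 libraries (−0.36 and −1.21). After METH no gene of either list was called by edgeR. In the DG 5 of the 15 signalling genes had an unadjusted p under 0.05, against 12.8% of all genes, the lowest being that of *Rgs4*, a regulator of G protein signalling (−2.27, FDR 0.172).

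Genes whose pattern over the 32 samples was most like that of a member were taken as the 3 with the highest Pearson correlation of log2(CPM + 1) among 16112 genes. For *Chat* these were *Slc5a7* (0.976), *Slc10a4* (0.975) and *Lhx8* (0.974), and for *Slc18a3* *Slc5a7* (0.972), *Lhx8* (0.960) and *Slc10a4* (0.960). For *Ache* they were *Aldh5a1* (0.942), *Ufsp1* (0.919), which lies 314 bases from *Ache* on the same strand, and *Smim17* (0.898). *Chrm1* was closest to *Cnksr2* (0.979), *Chrm2* to *Kctd9* (0.899), *Chrm3* to *Cyth3* (0.954) and *Chrm4* to *Akap5* (0.948). *Chrna7* was closest to *Ptprs* (0.958), *Chrnb2* to *Spock2* (0.895) and *Chrna4* to a gene named only AABR07005985.2 (0.886). Without the 5 libraries the value for *Chat* and *Slc5a7* was 0.972, that for *Chrna7* and *Ptprs* 0.966, and that for *Chrm2* and *Kctd9* 0.80. The samples share regions and libraries, so these values describe likeness of pattern only.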

How the data were processed

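RNA-seq was read from 32 per-sample tables of gene counts. The authors made the deposited counts from rRNA-depleted, paired-end total RNA libraries, with cutadapt 2.7, FastQC 0.11.4, STAR 2.5.2b on rn6 and featureCounts 1.6.3 without strand, per the labels, the submitters' processing notes and the file headers. The headers name an Ensembl annotation.

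Counts were fitted with edgeR 4.0.16 (R 4.3.3): upper-quartile library sizes, filterByExpr, quasi-likelihood F tests, Benjamini-Hochberg adjustment over all genes tested. Each region was fitted alone for METH against saline (8 samples), each treatment for the 4 regions (16 samples), and 8 group means (32 samples) for pairs of regions, the mean METH effect and its difference between regions. Called means FDR under 0.01 and, in 2-group contrasts, a fold above 2. Standard errors are the log2 fold change divided by the root of F. Tests were checked on simulated counts: for METH against saline in the NAc, 200 of 200 changed genes among 14862 were recovered and 1 other was called. For the difference of the METH effect between regions, 174 of 200 were recovered and 4 others were called. The simulation used 1 size of change and 1 dispersion for all genes. Its changed genes were not among those of low counts, and no library of other tissue was simulated. In the real fits the common biological coefficient of variation ran from 0.199 in the CA to 0.373 in the SVZ. The simulation therefore does not give the power to find changes in these samples, smaller ones or those of the simulated size. Alternatives were TMM, DESeq2 1.42.0, no filter, replicate number as a block, 1 RUVr factor (the study's number of factors is not given in the sources used here), FDR under 0.05, a fold above 1.5 and leaving out each library; chosen after seeing the data were leaving out 5 libraries (NAc below 1000 summed CPM of striatal markers, DG or CA above it, or thalamic markers above 1000), the sequencing run as a covariate, SVZ METH libraries of 1 header number summed, and that number as a block. In the headers, some DG libraries carry numbers used for the other treatment in the NAc and CA, and the 4 SVZ METH libraries carry 2 numbers. Sequencing runs were read from names in the same headers. Libraries named as merged counted as a run of their own, as did the SVZ libraries, which carry none of these names. Whether the names match the sequencing batches of the study could not be checked.

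Named are the 10 genes, the called genes of 5 other cholinergic lists (or, with none called, the gene of lowest p under 0.05) and the 3 genes of most like pattern. Not every gene that this rule names is reported here. The members and lists were chosen with earlier results of these data known. Promoter sequences come from RefSeq (GRCr8).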

Additional observations from a re-analysis of the deposited data

Results flagged for a closer look

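In 14 of 80 sets of 4 samples (10 genes in 8 groups), the highest or lowest sample lay far from the other 3 by Dixon's test, a test that chance passes in about 1 set of 20. Of these 14 samples, 6 are NAc METH sample 3, the library low in striatal markers: it was the highest for *Slc18a3* (19.1 CPM, others 10.0 to 10.9), *Ache* (189 CPM, others 81.1 to 99.0), *Chrm2* (25.1 CPM, others 7.42 to 9.68) and *Chrna7* (37.5 CPM, others 17.5 to 19.9), and the lowest for *Chrm1* (21.8 CPM, others 95.9 to 106) and *Chrm4* (8.0 CPM, others 65.9 to 67.1).

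DG saline sample 3, the library high in striatal markers, stood out for *Chat* (14.6 CPM, others 0.313 to 0.987) and *Slc18a3* (9.72 CPM, others 0.235 to 1.07). SVZ saline sample 1, a library high in thalamic markers, stood out for *Chrna4* (298 CPM, others 11 to 27.3) and *Chrnb2* (160 CPM, others 59.8 to 60.8). The part of tissue composition in these values was not tested.

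The other 4 samples far from their groups were CA METH sample 3 for *Chat* (2.27 CPM, others 0 to 0.167), CA saline sample 1 for *Chrm4* (19.7 CPM, others 30.6 to 32.6), DG METH sample 1 for *Chrna7* (85.6 CPM, others 33.1 to 36.9) and SVZ saline sample 2 for *Chrna7* (16.1 CPM, others 8.91 to 9.96).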

How the results depend on the processing

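Of the counts of the 10 genes called, those between 2 regions other than NAc against SVZ stayed within 1.5 times under every alternative, and all counts for METH were 0 under each. The count of genes that differed among regions in saline samples, 0 by edgeR, was 4 at FDR under 0.05, 4 by DESeq2, 3 with 1 RUVr factor and 5 without the 5 libraries, and in METH samples the count of 5 was 8 by DESeq2 and 8 with 1 RUVr factor. For NAc against SVZ the count of 0 was 1 at FDR under 0.05 (*Chrna4*), 1 by DESeq2 (*Chrna4*), 2 with 1 RUVr factor (*Chrm1*, *Chrna4*) and 1 without the 5 libraries (*Slc18a3*). Among log2 differences with an unadjusted p under 0.05, 4 changed sign, all without the 5 libraries: *Chrnb2* in NAc against SVZ (0.153, from −0.457), *Chrnb2* in DG against SVZ (0.0124, from −0.559), *Chrna4* in DG against SVZ (0.292, from −1.42) and *Chrna4* in CA against SVZ (0.451, from −1.12). Of 480 values of the other METH log2 fold changes under the alternatives 62 changed sign, and of 834 of the other region differences 8. Leaving out each library gave 0 to 4 genes in saline samples (4 without DG saline sample 3), 4 to 7 in METH samples, 3 to 5 for NAc against DG, 5 for NAc against CA, 0 to 1 for NAc against SVZ (*Chrna7* without NAc saline sample 1 or SVZ saline sample 2, *Chrna4* without NAc METH sample 3 or SVZ saline sample 3), 0 for DG against CA, 4 to 5 for DG against SVZ and 5 to 6 for CA against SVZ. The causes were not tested.

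With the replicate number as a block, the counts were 0 in saline samples, 4 in METH samples, 4 for NAc against DG, 5 for NAc against CA, 0 for NAc against SVZ, 0 for DG against CA, 4 for DG against SVZ and 5 for CA against SVZ. The numbers do not pair the samples: deviations of same-numbered METH and saline samples correlated between −0.771 and 0.397 over 16 pairs, 7 of them above 0.1, and 3 samples correlated best with their own number. Over all genes DESeq2 called more than edgeR: 116 against 0 for METH in the DG, 1 in the NAc, 3 in the CA and 2 in the SVZ against 0, 1489 against 0 among regions in saline samples, 3943 against 1676 in METH samples, 451 against 214 for NAc against SVZ, and 26 against 0 for the difference of the METH effect between regions. Depth limits *Chat* and *Slc18a3* in the DG and CA, where *Chat* had at most 3 counts in 2 DG and 5 CA samples; intervals and floors cover counting error only.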
